A study of Rattus norvegicus with 2 samples.

Results

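The genes described here are the fatty acid desaturases Scd, Scd2, Fads1 and Fads2 and the fatty acid elongases Elovl1, Elovl2, Elovl5 and Elovl6. They were chosen by gene symbol, as every probe set that the platform's annotation assigns to 1 of these 8 genes. That gave 13 of the 31042 probe sets left after the controls were set aside, for 8 of 14217 named genes. The liver that remained in rats after partial hepatectomy (PH) was measured 24 h after surgery. One group, 1/3PH, had the smaller part of the liver removed and the other, 2/3PH, the larger part. In each group the RNA of 3 rats was pooled and the pool was hybridised to 1 array, so 6 rats gave 2 measurements and no difference below has a replicate check. Both groups had surgery, and arrays of intact or sham liver were not analysed here. The sources used here do not give strain, sex or age. The design text describes DNA replication as robust after 2/3PH and minimal after 1/3PH, and the comparison asked which transcripts differ between these states.

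Desaturases place a double bond in a fatty acyl-CoA, and elongases lengthen the chain. Scd and Scd2 make monounsaturated fatty acids, chiefly oleate and palmitoleate, from saturated ones. Fads2 and Fads1 act in turn on the essential fatty acids linoleate and alpha-linolenate, with elongation by Elovl5 between them, to make arachidonate and eicosapentaenoate, and Elovl2 carries the chains further toward docosahexaenoate. Elovl6 converts palmitate to stearate, and Elovl1 builds saturated and monounsaturated chains of very great length for sphingolipids. In liver many of these genes are known targets of SREBP-1c, LXR and PPAR-alpha, and their products enter membranes, triglycerides and lipoproteins.

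The pair of polyunsaturated desaturases was lower after 2/3PH, and the other 6 genes lay close to equality. Fads1 was 3.24-fold lower, at a log2 ratio (2/3PH minus 1/3PH) of -1.70, and Fads2 was 1.93-fold lower, at -0.95. Scd, Scd2 and the 4 elongases had log2 ratios between 0.06 and 0.24 by their brightest probe sets. So 1 of 8 genes was at least 2-fold lower and none at least 2-fold higher, where 3.68% of the 9514 genes above the signal floor were 2-fold lower and 6.12% 2-fold higher. The floor, set at the middle of the mean log2 signals of the array's probe sets, controls aside, was 6.48, or 89.2 signal units, and all 8 genes passed it. Of their 13 probe sets, 10 passed it, with 1 at least 2-fold lower and none higher, beside 3.76% and 5.70% of all probe sets above it. The median log2 ratio of the 8 genes was 0.13, beside 0.03 for all genes above the floor. Of the 8 genes, 2 had ratios below 0, or 25%, beside 47.1% of all genes above the floor.

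The sequences just before the start sites of Fads1, Fads2 and Scd are shown because the first pair moved together and Scd, another desaturase on the same chromosome, did not. They are the 250 bases before the RefSeq start in build GRCr8, read 5′ to 3′ on the strand of the gene. Fads1 lies on the plus strand (chr1:216252442-216252691), and Fads2 (chr1:216172034-216172283) and Scd (chr1:253231732-253231981) on the minus strand. Capitals mark the letters CCAAT.
Fads1: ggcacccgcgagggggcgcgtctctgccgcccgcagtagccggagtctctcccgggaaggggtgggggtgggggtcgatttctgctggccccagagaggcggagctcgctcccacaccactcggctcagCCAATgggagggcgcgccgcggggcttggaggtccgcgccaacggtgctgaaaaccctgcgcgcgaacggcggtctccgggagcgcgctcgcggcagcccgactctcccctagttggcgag
Fads2: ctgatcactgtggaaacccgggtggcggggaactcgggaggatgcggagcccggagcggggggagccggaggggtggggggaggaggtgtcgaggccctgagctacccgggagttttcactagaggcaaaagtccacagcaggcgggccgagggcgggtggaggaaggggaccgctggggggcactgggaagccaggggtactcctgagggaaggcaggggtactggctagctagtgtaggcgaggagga
Scd: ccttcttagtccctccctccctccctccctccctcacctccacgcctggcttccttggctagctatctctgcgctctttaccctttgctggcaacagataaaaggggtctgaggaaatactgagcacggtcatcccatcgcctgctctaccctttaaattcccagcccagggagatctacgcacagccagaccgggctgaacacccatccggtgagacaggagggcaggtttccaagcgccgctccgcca
Both strands were searched for TCACNCCAC, a form of the sterol regulatory element in which N is any base, for the E-box CACGTG, which reads the same on both strands, and for CCAAT. TCACNCCAC was in none of the 8 windows found for 7 of the genes, beside 0.974% of 33469 windows of the same length. No window for Elovl6 was in the table used. CACGTG was in the Elovl5 window, beside 5.59% of all windows. CCAAT was in the Fads1, Scd2 and Elovl5 windows, beside 34.0% of all windows. Its match began 121 bases before the Fads1 start, and it was not in the Fads2 or Scd window. These letters describe the windows and are not evidence of binding, and elements farther upstream lie outside them.

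**Figure D1:**
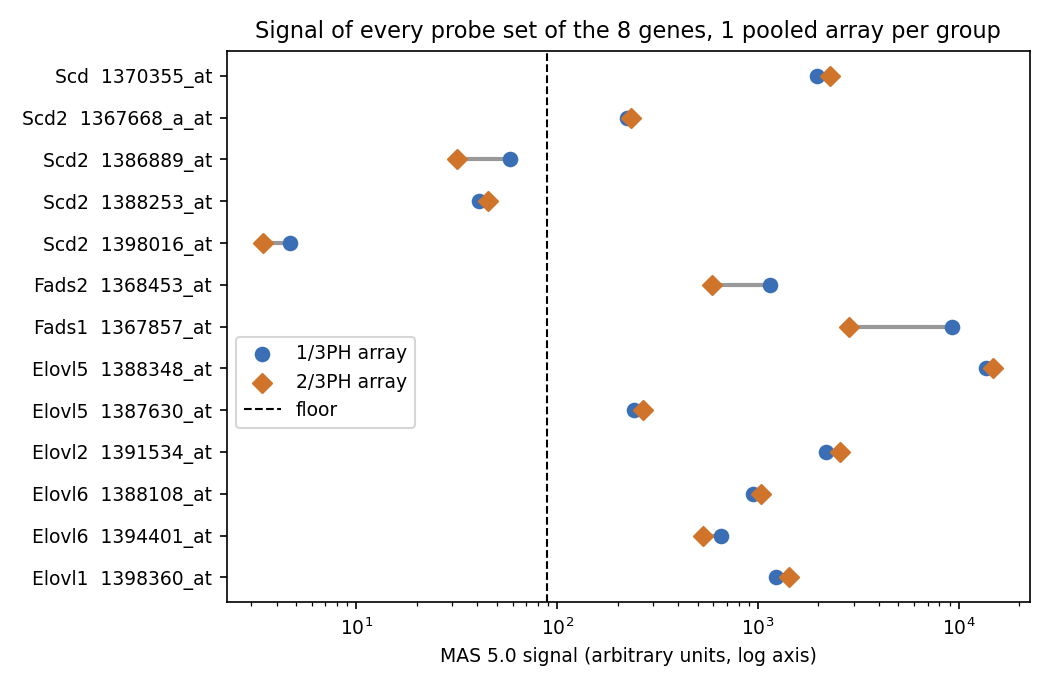
MAS 5.0 signal (log axis) of each of the 13 probe sets on the 1/3PH array (circles) and the 2/3PH array (diamonds), with a line joining both arrays and a dashed line at the floor of 89.2 units. The Fads1 and Fads2 lines are long and point left toward 2/3PH, and the other probe sets above the floor have markers that nearly touch.

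Fads1, which completes arachidonate and eicosapentaenoate, gave a signal of 9213 after the smaller resection (1/3PH) and 2840 after the larger (2/3PH). Both signals lie far above the floor, so the 3.24-fold difference is a measured one and not a bound. Of the genes above the floor, 0.767% had a lower log2 ratio. Fads2, which acts first on both essential fatty acids, gave 1141 after 1/3PH and 590.5 after 2/3PH. Its ratio fell just short of the 2-fold limit, and 4.25% of genes above the floor had a lower one. At a limit of 1.5-fold both genes were lower and none of the 8 higher, beside 12.0% of genes lower and 15.8% higher. Each of the pair was read by 1 probe set, Fads1 by 1367857_at and Fads2 by 1368453_at, so neither has a second reading on these arrays. Scd, Elovl1 and Elovl2 were likewise read by 1 probe set each.

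The only error these arrays hold is the disagreement between probe sets of 1 gene. Over the 2067 genes read by more than 1 probe set above the floor, the SD of a log2 ratio around its gene was 0.33, and 0.24 where all probe sets were above the 75th percentile of signal. It leaves out all variation between rats and between arrays. On the deposited scale the Fads1 and Fads2 ratios exceed the larger of these SDs in size. The ratios of the other 6 genes by their brightest probe sets are smaller than either. The second probe set of Elovl6, at -0.30, exceeds the smaller SD in size. With poly-A scaling the ratios of these 6 genes, from 0.50 to 0.68, exceed both SDs. Among 63 genes whose brightest probe set was at least 2-fold lower and which had a second one above the floor, the second was below 0 in 59 and also 2-fold lower in 39. The gap of 0.75 between the log2 ratios of Fads1 and Fads2 is larger than the SD of a difference between probe sets of a gene, 0.46, and their order was not tested.

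The stearoyl-CoA desaturases gave a different picture from the Fads pair. Scd, the main isoform of adult liver, gave 1973 after 1/3PH and 2296 after 2/3PH, and its log2 ratio was 0.22. Scd2, an isoform best known from brain, was read by 4 probe sets, of which 1 passed the floor. That probe set, 1367668_a_at, gave 223.3 and 232.0, a log2 ratio of 0.06 that turned to -0.02 under quantile normalization. The other 3 Scd2 probe sets were under the floor on both arrays. Probe set 1386889_at gave 58.4 and 31.6, 1388253_at gave 40.6 and 45.3, and 1398016_at gave 4.68 and 3.43. No fold is given for these, and they lay on both sides of equality. Scd and Scd2 are close relatives, and how far their probes share transcripts was not tested.

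The elongases that serve polyunsaturated chains were slightly brighter after 2/3PH. Elovl5, which lengthens the product of Fads2, had a bright probe set at 13594 after 1/3PH and 14844 after 2/3PH, giving a log2 ratio of 0.13. Its dimmer probe set gave 241.4 and 268.0, a log2 ratio of 0.15, so both readings of this gene lay on the same side of 0. Elovl2, which acts after Fads1, gave 2179 and 2564, a log2 ratio of 0.24. It was the highest of the 8 genes on the deposited scale, while Elovl5 was higher after quantile normalization, at 0.32, and after removal of a lowess trend, at 0.27.

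The elongases of saturated chains were similar. Elovl1 gave 1232 after 1/3PH and 1427 after 2/3PH, and its log2 ratio was 0.21. Elovl6, which makes stearate, gave 941.7 and 1032 by its brighter probe set, a log2 ratio of 0.13. Its second probe set gave 651.0 and 529.8, a log2 ratio of -0.30. The readings of Elovl6 lie on opposite sides of 0 and their mean was -0.08, so its direction is not settled by these arrays.

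**Figure D2:**
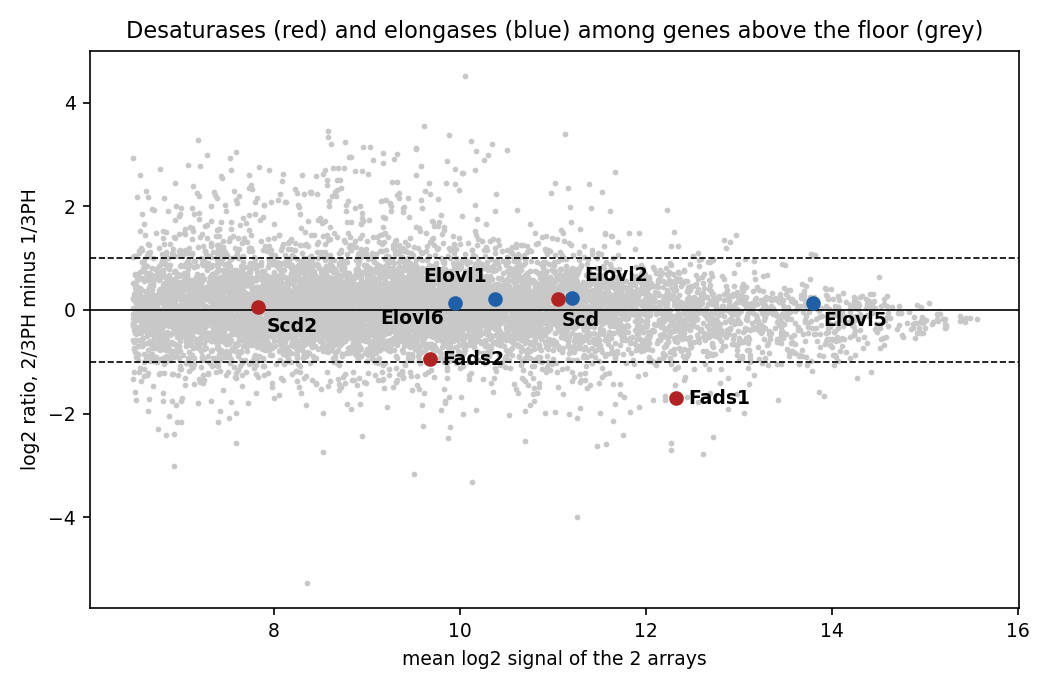
Log2 ratio, 2/3PH minus 1/3PH, against the mean log2 signal of both arrays for the 9514 genes above the floor (grey), with the 4 desaturases in red and the 4 elongases in blue, and dashed lines at 2-fold. Fads1 lies below the lower line at -1.70, Fads2 lies just above it at -0.95, and the other 6 genes lie between 0.06 and 0.24.

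A scaling of either array by 1 factor cancels when genes on the same array are compared. The log2 ratio of Fads1 was 1.93 below that of Elovl2, which means that the signal of Fads1 relative to Elovl2 was 3.82-fold lower after 2/3PH. Relative to Elovl5 it was 3.54-fold lower, and relative to Scd 3.77-fold lower. The signal of Fads2 was 2.11-fold lower relative to Elovl5 and 2.25-fold lower relative to Scd. Transcript signals of Fads1 and Fads2 thus had lower ratios than those of elongases of the same polyunsaturated route on these unreplicated arrays. The activity of the steps was not measured.

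Other genes of the pathway came from 8 lists with 69 entries, of which 56 were matched to a probe set and 47 were above the floor. Of the 47, 9 were at least 2-fold lower and 1 at least 2-fold higher, beside the 3.68% and 6.12% of all genes above the floor. Their median log2 ratio was -0.24. With scaling to the hybridisation controls 6 were lower and 2 higher, beside 2.21% and 10.2% of all genes above the floor. With scaling to the poly-A controls 6 were lower and 5 higher, beside 1.29% and 16.8%. The median of the 47 was then 0.20, beside 0.48 for all genes above the floor. The lists were drawn up with earlier results of these arrays known and are not independent evidence of a direction.

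The elongation cycle continues after the Elovl step with reduction, dehydration and a second reduction. Tecr and Tecrl, listed for the second reduction, were not matched to a probe set, so that step was not measured. The 4 measured genes had ratios between 0.18 and 0.40, all above 0 under each of the 5 scalings tried, and none passed 2-fold. They were the reductase Hsd17b12, at 9203 and 10648, and the dehydratases Hacd1, Hacd2 and Hacd3, at log2 ratios of 0.40, 0.18 and 0.30. Hacd4 was under the floor.

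Desaturases draw electrons from NADH through cytochrome b5 and its reductase. All 4 measured genes of that supply had ratios below 0, with a median of -0.34 that was 0.10 with poly-A scaling, and 1 passed 2-fold. The reductase Cyb5r3 gave 2335 after 1/3PH and 1122 after 2/3PH, 2.08-fold lower. With either control scaling it was no longer past 2-fold. The microsomal cytochrome Cyb5a gave 21962 and 14787, 1.49-fold lower. The mitochondrial form Cyb5b stood at -0.11 and Cyb5r4 at -0.09, and both turned positive with either control scaling. The dimmest probe set of Cyb5b stood at -1.06, so the probe sets of that gene disagree.

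Of the measured genes listed for fatty acid synthesis, 4 had ratios below 0, from -2.63 to -0.84. The 3 ratios above 0 were small, from 0.04 to 0.28. A 2-fold lower value was reached by 3 of 7 measured genes and a higher one by none, and the median was -0.84. Acss2, which makes acetyl-CoA from acetate, gave 7110 and 1146, a log2 ratio of -2.63. Acly, which makes it from citrate, stood at -1.74, and the fatty acid synthase Fasn at -1.11 by its brightest probe set and -2.08 by its dimmest. With either control scaling the brightest Fasn probe set was no longer past 2-fold. Acaca, the carboxylase that makes malonyl-CoA, was 1.79-fold lower. Me1, a source of NADPH, stood at 0.08, close to Scd2 and Elovl6. The other ratios above 0 were Mcat at 0.28 and Oxsm at 0.04, and Oxsm turned negative after median centring. Whether Mcat and Oxsm supply chains to Scd or Elovl6 was not tested. Acacb was under the floor.

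Long-chain acyl-CoA synthetases activate fatty acids before desaturation or elongation. Which of the genes listed for them, Slc27a2 and Slc27a5 included, serve those steps was not tested. The 6 measured genes all had ratios below 0 on the deposited scale, beside 47.1% of all genes above the floor. None of the 6 passed 2-fold there, and the median was -0.65. After median centring 2 of them were at least 2-fold lower, and after quantile normalization or removal of a lowess trend 1 was. With poly-A scaling the median was -0.21 and Acsl4, Acsl5 and Slc27a2 turned positive. The dimmest probe set of Acsl5 stood at 0.62, so its probe sets disagree. The ones furthest from 0 were Slc27a5 at -0.99, Acsl3 at -0.98 and Acsl1 at -0.88. Acsl4, which prefers arachidonate, stood at -0.29. Among the other desaturases, Fads3, a relative of Fads1 and Fads2, was 1.65-fold higher, at 129.2 and 213.4. The sphingolipid desaturase Degs1 stood at -0.09 and turned positive with either control scaling, and its dimmest probe set stood at 0.64. Elovl3 and Degs2 were under the floor.

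The list for control by SREBP, LXR, ChREBP and PPAR-alpha held the lowest value in the pathway lists, that of Thrsp. Whether Thrsp acts on the desaturase or elongase genes was not tested. A 2-fold lower value was reached by 3 of 13 measured genes and a higher one by none, and the median was -0.47. The median was -0.24 when the hybridisation controls set the scale and -0.03 when the poly-A controls did, where Insig2 passed 2-fold upward. Srebf1, which encodes SREBP-1, through which insulin activates lipogenic genes, gave 3001 after 1/3PH and 1052 after 2/3PH, 2.85-fold lower. Insig1, which holds SREBP in the endoplasmic reticulum and is itself an SREBP target, gave 12034 and 2027, and Thrsp, a factor that promotes lipogenesis, gave 9851 and 613.9. Insig2, a relative of Insig1 with the same retention role, was 1.66-fold higher, at 3099 and 5131, though its dimmest probe set stood at 0.07. Mlxipl (ChREBP) was 1.70-fold lower and Srebf2 1.39-fold lower, while the LXR gene Nr1h3 stood at -0.21 and turned positive with either control scaling. Ppara was under the floor on both arrays, at 18.5 and 2.62, and no fold is given for it.

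Downstream of the desaturases, the peroxisomal genes that shorten very long chains to docosahexaenoate had a median of -0.41, or 0.03 with poly-A scaling. Of 5 measured, Ehhadh was 3.59-fold lower, at 3266 and 910.4, and no other passed 2-fold on the deposited scale. Hsd17b4 stood at -0.54, and Scp2 at -0.41, or 0.03 with poly-A scaling. Abcd2, a peroxisomal transporter, was at least 1.48-fold higher, since its 1/3PH signal of 71.5 was under the floor. Its log2 ratio of 0.88 became 1.12 and 1.32 with the hybridisation and poly-A controls as the scale.

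The listed acyltransferases of phospholipids lay on both sides of 0, with a median of 0.15 over 6 genes. How far each of them is selective for polyunsaturated chains was not tested. Lpcat1 stood at 0.59. Lpgat1 was 2.19-fold lower, at 3250 and 1481, and was not past 2-fold with either control scaling. Lpcat3, which puts arachidonate and linoleate into membrane lipids, was 1.71-fold lower. Mboat1, an acyltransferase of lysophospholipids, was 2.42-fold higher, at 370.1 and 894.1, the 1 listed gene past 2-fold in that direction. Mboat7, which is selective for arachidonate, stood at 0.18. The listed genes nearest to the median of the 8 desaturases and elongases were Agpat3 at 0.12, Hacd2 at 0.18 and Me1 at 0.08, a likeness that rests on a single difference over 2 arrays.

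**Figure D3:**
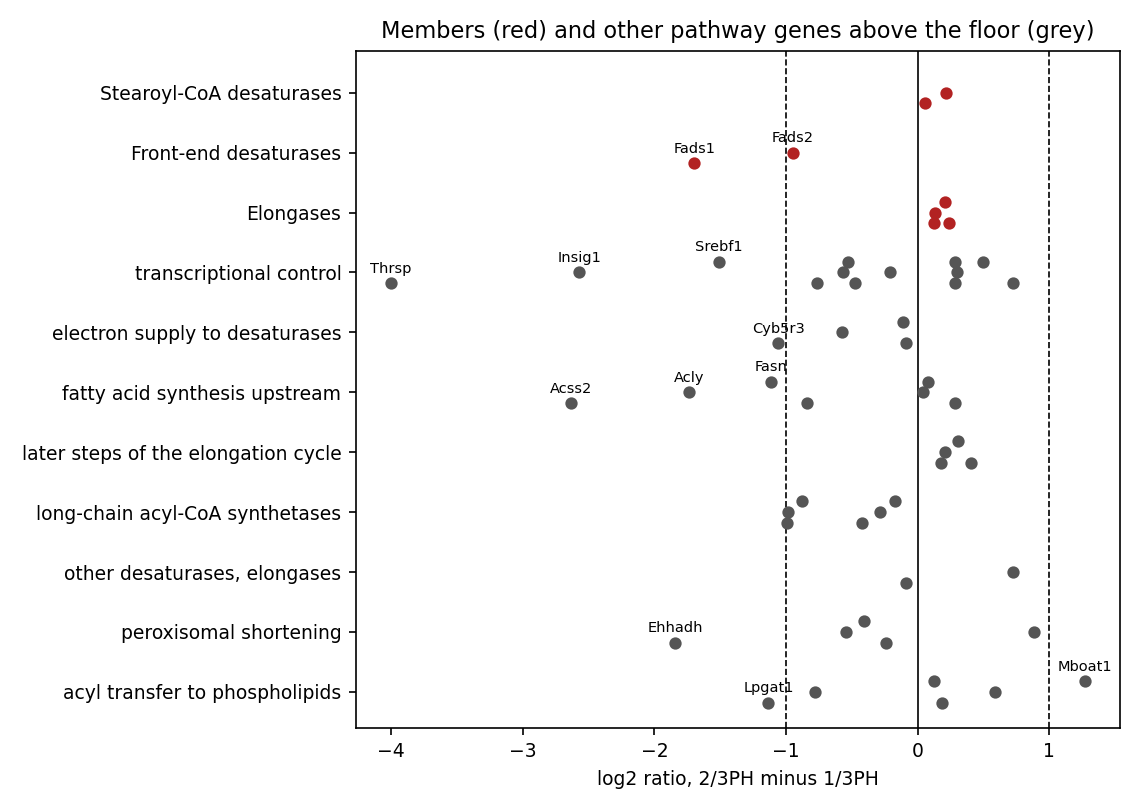
Log2 ratio, 2/3PH minus 1/3PH, of the 8 desaturase and elongase genes (red, upper rows) and of the 47 other pathway genes above the floor (grey), 1 point a gene by its brightest probe set, with dashed lines at 2-fold and names for genes past them and for Fads2. The elongases and the measured genes of later steps of the elongation cycle lie just right of 0. Fads1, Acly, Srebf1, Ehhadh, Acss2, Insig1 and Thrsp lie far to the left.

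The cell makeup of the samples was read from 8 marker lists. Of the hepatocyte markers 9 of 9 were above the floor and none passed 2-fold, with a median of -0.15 that turned positive under 4 of the 5 scalings. Their summed signal was 272116 after 1/3PH and 246031 after 2/3PH. Markers of other liver cells had lower medians, at -0.64 over 8 macrophage and Kupffer cell genes (summed signal 20601 and 13999), -0.55 over 6 endothelial genes (11609 and 7408), -0.76 over 8 stellate and matrix genes (13164 and 7712) and -0.98 over 4 erythroid and neutrophil genes (27124 and 13511). With poly-A scaling these medians were -0.20, -0.11, -0.32 and -0.54 in the same order. The 3 cholangiocyte genes had a median of 0.23 (summed signal 1240 and 1292), with Krt7 under the floor. In these bulk samples fewer cells of a type and less RNA per cell cannot be told apart, and the part of these shifts in the Fads1 and Fads2 values was not tested. Of 8 adipocyte genes matched, Adipoq, Plin1, Lep and Adrb3 were under the floor on both arrays. The other 4 had a median of 0.01 that turned negative under 3 scalings. Of these, Cidec gave 2358 and 1896, Cfd 808.1 and 637.8 and Lipe 263.2 and 329.9, and Fabp4 was 4.17-fold higher, at 94.9 and 395.8. The part of adipose tissue in the Scd values was not tested. The summed signal of all 8 adipocyte genes matched was 3621 and 3330. The 7 cell division genes all exceeded 2-fold upward, and had a median of 3.01 and a summed signal of 6938 and 30328.

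RNA quality was read from the control probe sets at both ends of 2 transcripts. The ratio of 3′ to 5′ signal was 6.68 after 1/3PH and 7.53 after 2/3PH for beta-actin, and 1.58 and 1.28 for GAPDH. After 2/3PH the ratio was higher for beta-actin and lower for GAPDH, and its part in the results was not tested.

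**Figure D4:**
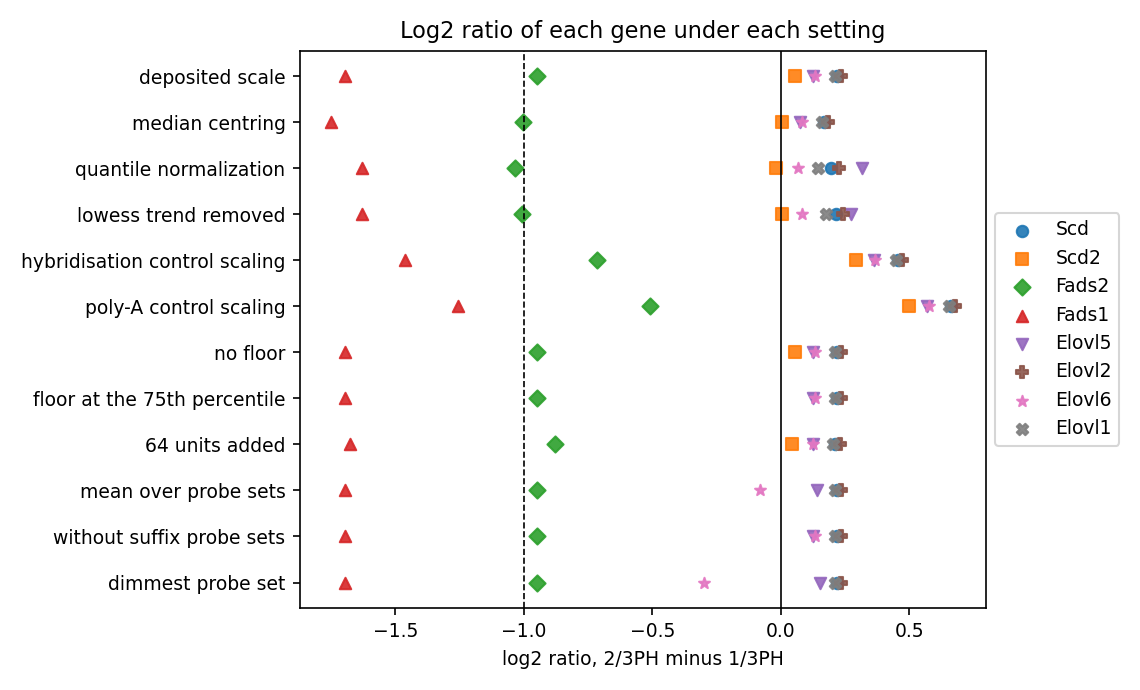
Log2 ratio, 2/3PH minus 1/3PH, of each of the 8 genes (1 marker shape a gene) on the deposited scale and under 11 other settings, with a dashed line at 2-fold lower. Fads1 lies left of the line in each row, Fads2 moves around it, and the other 6 genes stay near or right of 0, apart from Elovl6 with the mean over probe sets and with the dimmest probe set; Scd2 is missing in the rows where it did not reach the floor.

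Fads1 was at least 2-fold lower under each setting tried, with log2 ratios from -1.75 with median centring to -1.26 with poly-A scaling. Fads2 had ratios below 0 under each setting and passed 2-fold under 3 of the scalings, with -1.002 after median centring, -1.01 after removal of a lowess trend and -1.04 after quantile normalization. It stood at -0.71 when the hybridisation controls set the scale and at -0.51 when the poly-A controls did. These control scalings moved the median of all genes above the floor by 0.24 and 0.44. Relative to the median of all genes, Fads1 stood at -1.73 and Fads2 at -0.99 on the deposited scale. The control scalings shift every gene alike and cannot change these distances. They were -1.63 and -1.03 after quantile normalization, and -1.65 and -1.02 after removal of a lowess trend. The calls over all genes were 62.4% higher ones on the deposited scale, 82.2% on the scale of the hybridisation controls and 92.9% on that of the poly-A controls.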

How the data were processed

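RNA of remnant liver was pooled from 3 rats per group and hybridised to 1 Affymetrix 3' IVT array per group. The deposited values are log2 signals from the MAS 5.0 algorithm, which the authors ran in GeneSpring 11.0 per the labels' protocols. As powers of 2, their mean without the outer 2% on each side was 500.3 on one array and 500.2 on the other, so a change in total RNA per cell is hidden. No detection calls were used here, and a signal floor replaced them.

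Symbols came from the platform annotation, updated through Entrez identifiers to RefSeq (GRCr8). Controls aside, 20826 probe sets had a single symbol, 436 more than 1 symbol and 9780 no entry there. A gene was represented by its brightest probe set and called at 2-fold. With 1 array per group no test was possible, and the number of arrays limits the precision.

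The members and gene lists were chosen with earlier results of these data known. Named genes were the 8 members, every listed gene past 2-fold, otherwise up to 3 per list with the largest ratios, and Srebf1, Insig1 and Ppara; others named were chosen after their values were seen. The alternatives were 5 scalings, 2 floors, 64 added units, 3 choices of probe set and limits of 1.5-fold and 3-fold. Python 3.11.15, pandas 2.3.3 and statsmodels 0.14.6 were used, and the procedure was tested on simulated data.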

Additional observations from a re-analysis of the deposited data

How the results depend on the processing

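The count of 1 gene at least 2-fold lower became 2, with Fads2 added, under median centring, quantile normalization, lowess and the 1.5-fold limit, and remained 1 under the other 9 alternatives. The count of genes 2-fold higher was 0 throughout. The median log2 ratio of the 8 genes was 0.57 with poly-A scaling and between 0.08 and 0.37 under the other alternatives. Of 84 values for single members, 75 moved by less than the SD of 0.33 between probe sets of a gene, 9 moved more and 3 changed sign, Scd2 under quantile normalization and Elovl6 with the mean over probe sets and with its dimmest probe set. Of 495 values for the 47 other pathway genes, 61 moved more and 23 changed sign. Many of these values could not move. The choice of floor and, for a gene with 1 probe set, of probe set returns the main value or none. Median centring and hybridisation control scaling shift every gene by -0.05 and 0.24, less than that SD. Poly-A scaling shifts every gene by 0.44, more than the SD. These counts are therefore no measure of how stable the results are. Scd2 gave no value with the 75th percentile floor, the mean over probe sets, the dimmest probe set or without suffix probe sets, since it did not reach the floor. No paired analysis was possible because each group is 1 pooled array.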

Other observations

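Some protein-coding genes next to these members in the RefSeq order had values far from theirs. These neighbours were looked up after the data were seen, and their differences have no replicate check. Fads1 lies between Fads2 and Fen1, a nuclease of DNA replication. Fen1 was 3.94-fold higher after 2/3PH, at 339.7 and 1338, beside Fads1 at 3.24-fold lower. On the other side of Fads2, Fads3 was 1.65-fold higher, and beyond Fen1, Tmem258 stood at a log2 ratio of 0.17. Elovl1 neighbours Cdc20, an activator of the anaphase-promoting complex, which was 8.82-fold higher, at 167.2 and 1475, beside a log2 ratio of 0.21 for Elovl1. Elovl5 neighbours Gclc, which makes a precursor of glutathione and stood at 0.65. Elovl6 lies between Enpep, at -0.93, and Egf, at -0.67, by their brightest probe sets.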
